A study of Mus musculus with 16 samples.

Results

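Enpp6, a, Ccdc187, Mgp, Tm4sf5, Unc45b and Angptl7 are 7 of the 40840 genes in the count table of p53−/−; Myc hepatoblasts treated with sorafenib. They were chosen by their values in these same libraries, being expressed under vehicle and among those with the largest falls under sorafenib at 48 hours or at 7 days. The level of each gene under sorafenib relative to vehicle is therefore what selected it, and it is given here as a description with no test. The cells are mouse hepatoblasts, liver precursor cells, of a single line that lacks p53 and overexpresses Myc, and every group carries both changes. They received vehicle (DMSO) or sorafenib (8.5 µM), a multikinase inhibitor used against hepatocellular carcinoma, and poly(A) RNA was sequenced after 48 hours or 7 days. Each of the groups DMSO 48 hours, sorafenib 48 hours, DMSO 7 days and sorafenib 7 days held n = 4 libraries. The labels do not state that the 4 replicates of a group were separate cultures, so p-values measure the spread between these libraries, which may be technical.

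All 7 genes were among the 20444 that had at least 10 counts summed over the 16 libraries and were tested. A gene can pass this filter through its vehicle libraries alone, and the passing of all 7 carries no weight. Total counts per library ran from 16586254 to 30828427. Normalized counts are counts scaled to the mean effective library size, and 3 counts in a library corresponded to 2.44 to 4.54 of them. In the library of sorafenib 48 hours replicate 2, genes on chromosomes 15 to 19 and X stood 0.605 times as high relative to those on chromosomes 1 to 13 as in the other libraries of its group, a log2 step of −0.73. The largest such step among the other 15 libraries was 0.006. None of the 7 genes lies on chromosomes 15 to 19 or X. All lie on chromosomes 1 to 13, where the median log2 deviation of that library was 0.091, against −0.634 on the others. Without sorafenib 48 hours replicate 2, the share of vehicle left at 48 hours, given below gene by gene, was 0.290% for Enpp6, 1.43% for a, 1.25% for Ccdc187, 1.67% for Mgp, 2.24% for Tm4sf5, 8.32% for Unc45b and 9.16% for Angptl7.

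The 7 genes have no single known function in common. Some encode secreted proteins, namely agouti, which blocks melanocortin receptors and so shifts coat pigment, matrix Gla protein, which needs vitamin K to restrain calcification, and Angptl7, a relative of the angiopoietins. Others act at membranes or inside cells. Enpp6 cleaves choline phosphodiesters such as glycerophosphocholine, Tm4sf5 is a membrane protein of the L6 family with 4 transmembrane segments, and Unc45b is a chaperone that works with HSP90 to fold muscle myosin. Sorafenib blocks RAF kinases and several receptor tyrosine kinases, and long exposure of liver cancer cells is known to change their metabolism.

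The labelled cell type was compared with its usual markers. Hnf4a, a defining hepatocyte transcription factor, had no count in any of the 16 libraries, Alb had at most 1 count, and Afp at most 14. Dlk1, a hepatoblast surface protein, had 30795 to 38122 counts in the DMSO 48 hours libraries and 3488 to 5025 in the sorafenib 7 days libraries. Over the 11 hepatoblast or liver epithelium markers, the summed normalized count was 35000 to 36370 at DMSO 48 hours, 12890 to 14810 at sorafenib 48 hours, 18790 to 20610 at DMSO 7 days and 6899 to 7164 at sorafenib 7 days. Over 7 fibroblast or stellate cell markers, led by Col1a1 and Col3a1, it was 117300 to 119200, 126200 to 139500, 90390 to 95030 and 63670 to 65220 in the same order. The hepatoblast sum was carried by Dlk1. Within the same list, Foxa2 had 200 to 251 counts at DMSO 48 hours and 524 to 695 at sorafenib 48 hours, and Sox9 had 204 to 288 and 454 to 700, so both were higher under sorafenib, as they also were at 7 days. Among the fibroblast markers, Col1a1 had 41681 to 49843 counts at DMSO 48 hours and 56015 to 81817 at sorafenib 48 hours, while Col3a1 had 69710 to 82364 and 31971 to 46059. At 7 days Col1a1 had 39863 to 49208 counts under DMSO and 47438 to 63971 under sorafenib. Col3a1 had 41354 to 53256 and 8944 to 12520 there. Pdgfra and Pdgfrb had fewer counts under sorafenib at both times, and Col1a2 more at 48 hours. The hepatoblast sum was thus lower under sorafenib at both times. The fibroblast sum was higher at 48 hours and lower at 7 days, while its markers went both ways. The part of either in the falls of the 7 genes was not tested. In such bulk RNA, fewer cells that express a gene and less RNA per cell cannot be told apart.

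The markers of other cell types were low. Over 7 skeletal muscle markers, the sums were 35.2 to 40.8, 27.3 to 44.7, 23.8 to 43.7 and 100.3 to 117.8 normalized counts in the same order of groups. The higher sum at sorafenib 7 days was carried by Acta1, at 79 to 129 counts against 8 to 16 at DMSO 7 days. Tnnt3, Mylpf and Myog were not higher there. Myod1, which defines the muscle lineage, had no count in any library. Over 5 endothelial markers the sums were 43.0 to 77.6, 115 to 142, 30.3 to 41.4 and 186 to 222, with Tie1 at 0 throughout. These sums were carried by Kdr, at 163 to 270 counts at sorafenib 7 days against 26 to 41 at DMSO 7 days. Over 4 macrophage or blood cell markers the sums were 75.6 to 88.0, 61.9 to 89.8, 125 to 157 and 75.2 to 86.9, with Adgre1 at 0 throughout.

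The 7 genes lie on 5 chromosomes in GRCm39, all as protein-coding genes. Enpp6 is at chr8:47439919-47549797 on the plus strand, with 8 exons in its canonical transcript. The agouti gene a spans chr2:154633322-154892939 on the plus strand, and its canonical transcript has 4 exons. Ccdc187 lies on the same chromosome at chr2:26133481-26184569, minus strand, with 27 exons. Tm4sf5 (chr11:70396070-70402004, 5 exons) and Unc45b (chr11:82798587-82836306, 20 exons) are both on the plus strand of chromosome 11. Mgp is at chr6:136849433-136852821 and Angptl7 at chr4:148579639-148584923, both on the minus strand, with 4 and 5 exons.

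Promoter sequences of the 250 bases before the transcription start, from the RefSeq promoter table of GRCm38.p6, were present for 6 of the 7 genes, and each matched GRCm39 at 1 place. Those of Enpp6, with the lowest counts left, of a, with the sole motif match, and of Angptl7, the most abundant of the 7, are shown as the examples from which the search below can be read. They read 5′ to 3′ toward the gene, and capitals mark the CCAAT letters. The positions are chr8:47439672-47439921 (plus strand) for Enpp6, chr2:154855240-154855489 (plus strand) for a and chr4:148584920-148585169 (minus strand) for Angptl7 in GRCm39.
Enpp6: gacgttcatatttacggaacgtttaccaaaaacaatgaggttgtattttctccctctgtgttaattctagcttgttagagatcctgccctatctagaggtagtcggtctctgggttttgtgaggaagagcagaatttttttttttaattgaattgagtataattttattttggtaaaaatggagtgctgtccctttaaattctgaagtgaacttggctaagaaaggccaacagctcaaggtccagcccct
a: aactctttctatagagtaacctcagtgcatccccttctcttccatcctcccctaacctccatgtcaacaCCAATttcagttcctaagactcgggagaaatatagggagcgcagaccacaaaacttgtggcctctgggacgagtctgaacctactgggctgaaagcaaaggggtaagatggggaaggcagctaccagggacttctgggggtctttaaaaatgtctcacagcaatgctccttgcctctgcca
Angptl7: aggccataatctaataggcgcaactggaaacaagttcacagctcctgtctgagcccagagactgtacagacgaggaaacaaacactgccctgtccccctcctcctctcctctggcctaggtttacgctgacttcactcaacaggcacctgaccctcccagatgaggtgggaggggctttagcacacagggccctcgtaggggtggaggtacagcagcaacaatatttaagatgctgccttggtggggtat

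The promoters of the 6 genes were searched on both strands for the TATA box letters TATAAA, for CCAAT, and for the AP-1 letters TGANTCA, the TEAD letters GGAATG, the ETS letters CCGGAAG and the sterol response letters TCACNCCAC. One match was found in all, CCAAT in the promoter of a, starting 181 bases before the start and overlapping no other motif. Among all 32851 promoters of the table, 33.8% held CCAAT, 12.4% TATAAA, 6.75% the AP-1 letters, 12.6% the TEAD letters, 6.91% the ETS letters and 1.05% the sterol response letters. A missing match says only that these letters are not in the 250 bases. The GC content of the 6 promoters ran from 38.4% in Enpp6 to 56.8% in Unc45b, against a median of 52.4%, and their observed over expected CpG ratio ran from 0.121 in Ccdc187 to 0.441 in Enpp6, against a median of 0.373. The RefSeq start of Unc45b lies 3325 bases from its canonical start in GENCODE, while those of the other 5 lie within 39 bases.

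Under vehicle, Angptl7 was by far the most abundant of the 7. Per kilobase of exon, its level at DMSO 48 hours was 3325 normalized counts, against 819 for Mgp, 555 for a, 389.6 for Tm4sf5, 40.8 for Enpp6, 24.8 for Unc45b and 24.5 for Ccdc187. Unc45b and Ccdc187, neighbours in that order, did not differ beyond their spread. The exon length is that of all exons of a gene in GENCODE, merged over its transcripts, and the order depends on it. The transcripts expressed in these cells were not determined. The SD over the 4 vehicle libraries was between 1.49% of the mean, for Mgp at 48 hours, and 15.9%, for Ccdc187 at 48 hours.

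**Figure D1:**
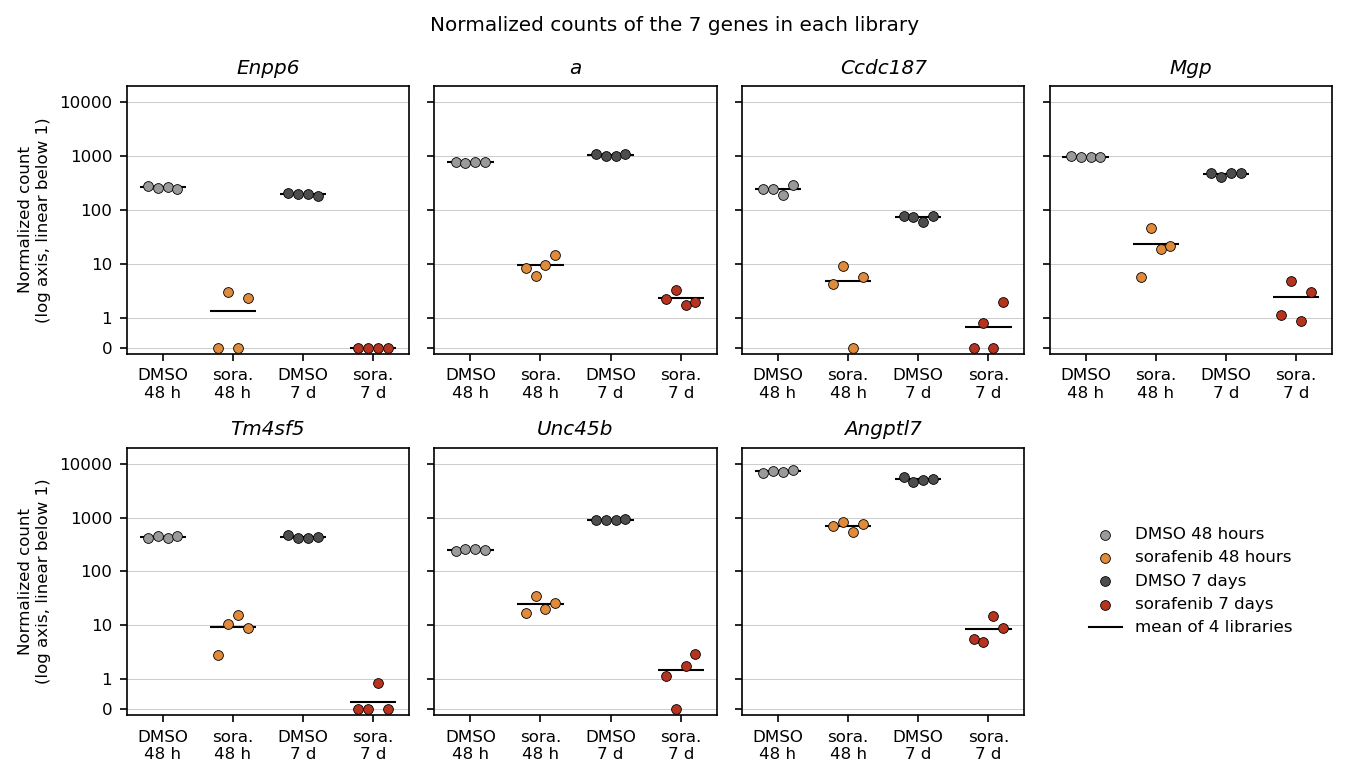
Normalized counts of each of the 7 genes in every library, on a log axis that is linear below 1, for DMSO and sorafenib at 48 hours and 7 days; points are libraries (n = 4 per group) and lines are means. In every panel the sorafenib points lie below the vehicle points of the same time, and all 4 sorafenib 7 days points of Enpp6 are at 0.

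At neither time did the sorafenib libraries overlap the vehicle libraries in any of the 7 genes, a separation that their selection favoured. The share of all genes without overlap is not given here, and the shares that follow are of genes called. Across all tested genes at 48 hours, edgeR's quasi-likelihood test called 54.6% at a false discovery rate (FDR) under 0.05, 26.9% higher and 27.7% lower under sorafenib. At 7 days the shares were 56.8% in all, 28.9% higher and 27.9% lower. Of the 28 values that the 7 genes had in the 4 sorafenib libraries at 48 hours, 3 were 0 and 7 were at most 3 counts. At 7 days 10 of 28 were 0 and 22 were at most 3 counts, so that most values there were at the limit of counting. Intervals on the share of the vehicle level left are exact 95% intervals on the summed counts and, like the bounds at 3 counts, cover counting error only.

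Enpp6, the choline phosphodiesterase, had the smallest share left of the 7 at 48 hours, with an interval that overlapped those of a and Ccdc187. Its counts in replicates 1 to 4 were 288, 291, 262 and 283 at DMSO 48 hours and 0, 2, 0 and 2 at sorafenib 48 hours. At 7 days they were 192, 226, 230 and 194 under DMSO and 0 in all 4 sorafenib libraries. The 48-hour libraries held 4 counts in all, 0.464% of the vehicle level (interval 0.126% to 1.19%), or 215-fold lower. That value rested on 2 libraries, and it was 0.317% without replicate 4 and lower again without replicate 2, as given above. At 7 days the level was at least 277.5-fold lower, taking 3 counts over the group as the bound, or at most 0.360% of vehicle. The 2 times cannot be ordered for Enpp6, since both lay at or under the limit of counting.

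The gene a encodes agouti signaling protein, an antagonist of melanocortin receptors. Its counts were 801, 868, 746 and 893 at DMSO 48 hours and 6, 4, 10 and 13 at sorafenib 48 hours. At 7 days they were 992, 1177, 1169 and 1184 under DMSO and 2, 4, 2 and 2 under sorafenib. All 4 sorafenib libraries at 7 days had a smaller share of their vehicle mean than any at 48 hours. The share left was 1.30% (interval 0.894% to 1.83%) at 48 hours, 76.8-fold lower, and 0.224% (0.107% to 0.412%) at 7 days, 447-fold lower.

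Mgp encodes matrix Gla protein, the inhibitor of calcification. Its counts were 1008, 1130, 933 and 1124 at DMSO 48 hours and 4, 30, 20 and 19 at sorafenib 48 hours. At 7 days they were 439, 481, 552 and 529 under DMSO and 1, 6, 1 and 3 under sorafenib. Replicate 1 at 48 hours, at 0.577% of the vehicle mean, was already as low as the 7-day libraries, while replicate 2 stood at 4.67%. The shares of the 2 times therefore overlapped, although the 7-day normalized counts all lay below the 48-hour ones. The share left was 2.27% (1.78% to 2.86%) at 48 hours and 0.556% (0.277% to 0.997%) at 7 days, 44.0-fold and 179.9-fold lower. Without sorafenib 7 days replicate 2, which held 6 of the 11 counts, the 7-day share was 0.355%.

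Tm4sf5, the L6 family membrane protein, had counts of 426, 531, 413 and 526 at DMSO 48 hours and 2, 7, 16 and 8 at sorafenib 48 hours. At 7 days they were 437, 492, 475 and 479 under DMSO and 0, 0, 1 and 0 under sorafenib. Again 1 library, replicate 1 at 48 hours, stood below the others, at 0.640% of the vehicle mean against 2.07% to 3.47%. The share left was 2.27% (1.56% to 3.20%) at 48 hours. The single count at 7 days gave 0.0537% with an interval of 0.00136% to 0.300%, and without replicate 3, which held it, the bound at 3 counts was 0.220%. Every 7-day share lay below every 48-hour share, but replicate 1 at 48 hours had 2 counts, and the level of 3 counts in the 7-day libraries was 0.557% to 0.772%, so that library cannot be told apart from them.

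Ccdc187 encodes a coiled-coil protein and was the gene with the fewest vehicle counts at 7 days. Its counts were 248, 281, 187 and 329 at DMSO 48 hours and 3, 6, 0 and 5 at sorafenib 48 hours. At 7 days they were 72, 87, 70 and 83 under DMSO and 0, 1, 0 and 2 under sorafenib. The share left was 1.75% (0.952% to 2.95%) at 48 hours. The 3 counts at 7 days gave 0.973% with an interval of 0.200% to 2.87%, and 0.425% without replicate 4. These intervals overlapped and so did the shares of single libraries, so a further fall between the 2 times was not detectable at this depth.

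Unc45b, the myosin chaperone, was less reduced at 48 hours. Its counts were 248, 306, 256 and 288 at DMSO 48 hours and 12, 23, 21 and 23 at sorafenib 48 hours. At 7 days the vehicle counts were higher, at 847, 1047, 1054 and 1019, and the sorafenib counts were 1, 0, 2 and 3. The share left was 9.39% (7.37% to 11.8%) at 48 hours, 10.6-fold lower, with single libraries between 6.62% and 13.7%. The highest of these was replicate 2, the library with the chromosome step. At 7 days the share was 0.153% (0.0561% to 0.333%), 654-fold lower, and it was 0.1003% without replicate 4.

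Angptl7, a secreted angiopoietin-like protein, kept at least 494 counts in each library at 48 hours. Its counts were 6801, 8591, 6958 and 8768 at DMSO 48 hours and 494, 538, 576 and 677 at sorafenib 48 hours. At 7 days they were 5330, 5280, 5800 and 5545 under DMSO and 5, 6, 17 and 9 under sorafenib. With these numbers its shares had the least counting error of the 7 relative to their size. They were 9.58% (9.18% to 9.997%) at 48 hours and 0.170% (0.120% to 0.235%) at 7 days, 10.4-fold and 587-fold lower than vehicle. Single libraries ran from 7.62% to 11.3% at 48 hours and from 0.0954% to 0.291% at 7 days, beyond both intervals.

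The 7 genes thus differed in timing. In a, Tm4sf5, Unc45b and Angptl7, all 4 libraries at 7 days had a smaller share of the vehicle mean than all 4 at 48 hours. The mean normalized count under sorafenib was 82.5 times as high at 48 hours as at 7 days for Angptl7, 43.1 times for Tm4sf5, 16.8 times for Unc45b, 9.32 times for Mgp, 6.82 times for Ccdc187 and 4.21 times for a. The ratio for Tm4sf5 rests on the 1 count at 7 days, that for Ccdc187 on 3 counts, and Enpp6 has none because its 7-day group is at 0. These are ratios of levels, and the vehicle level also differed between the times. On the share of the vehicle level left, the 48-hour value was 61.4 times the 7-day one for Unc45b, 56.2 times for Angptl7, 42.3 times for Tm4sf5, 5.82 times for a, 4.08 times for Mgp and 1.80 times for Ccdc187, so the order of the genes differs between the 2 measures. Both times entered the selection, so these ratios are descriptions.

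**Figure D2:**
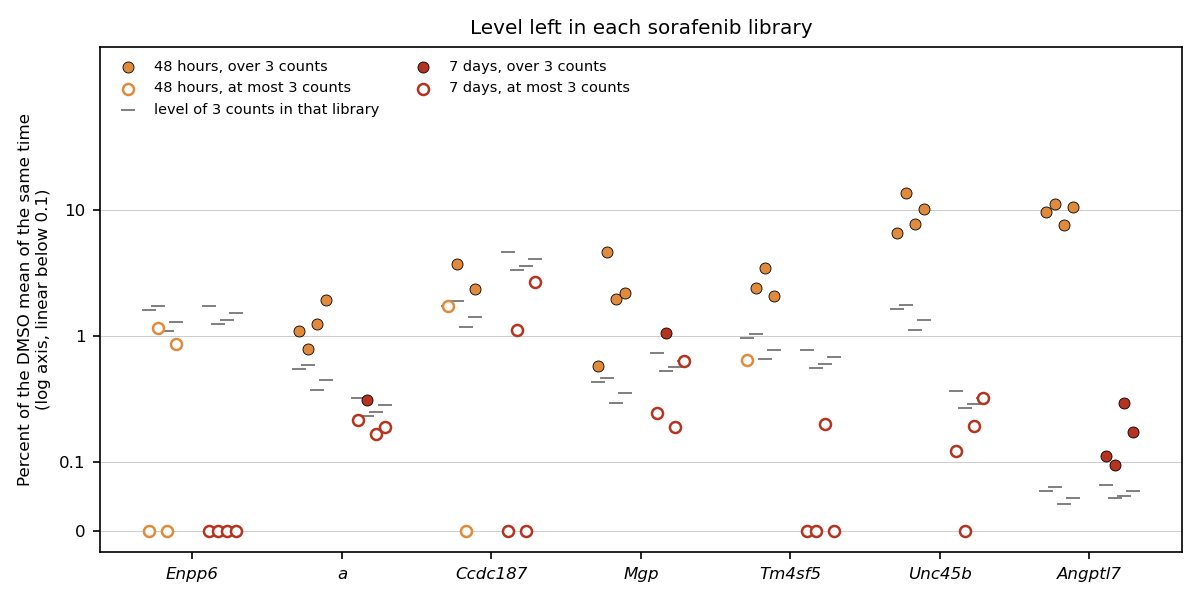
Percent of the vehicle mean of the same time left in each sorafenib library, on a log axis that is linear below 0.1; filled points had over 3 counts, open points at most 3, and short bars mark the level of 3 counts in that library. The 7 days points of a, Tm4sf5, Unc45b and Angptl7 all lie under their 48 hours points, but at 7 days Angptl7 is the one gene with every point above the bars.

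Among the 11458 genes with a vehicle mean of at least 50 normalized counts at 48 hours, the median gene kept 99.2% of its vehicle level. Ordered from the lowest share, Enpp6 was number 5, a number 6, Ccdc187 number 8, Mgp number 9 and Tm4sf5 number 10, while Unc45b and Angptl7 were numbers 63 and 66. At 7 days, among 11231 genes with a median of 96.7%, Enpp6 was tied as number 1 with Fmo2, Chst4 and Smpx, which also had no count under sorafenib. Tm4sf5 was number 5, Unc45b number 7, Angptl7 number 8, a number 9, Mgp number 18 and Ccdc187 number 26.

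The selection rule states no numerical threshold, and other genes lay as low as these 7. At most 5% of the vehicle level was left in 29 genes at 48 hours, 5 of them among the 7, and in 85 genes at 7 days, which include all 7. At most 1% was left in 5 genes at 48 hours, of the 7 only Enpp6, and in 26 at 7 days, again with all 7. The genes lowest at 48 hours that are not among the 7 were Aire, Pnliprp2 and Gm39529 with no count, and Fmo2 with 0.206%. Just above Tm4sf5 in that order came Ifitm1 with 2.45% and Lbhd2 with 2.69%.

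**Figure D3:**
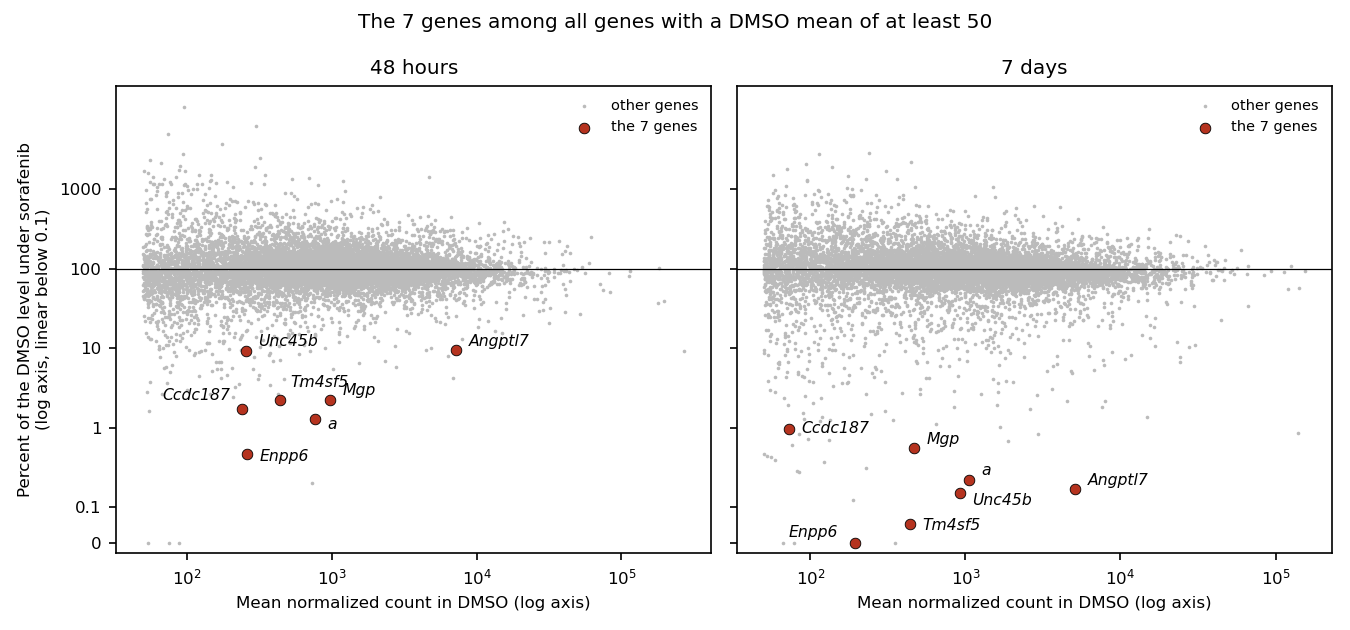
Percent of the vehicle level under sorafenib (log axis, linear below 0.1) against the mean normalized count under DMSO (log axis) for all genes with a DMSO mean of at least 50, at 48 hours (11458 genes) and 7 days (11231 genes); the line marks 100%. At 48 hours Unc45b and Angptl7 lie near 10%, and at 7 days all 7 genes lie under 1%.

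The comparison of the vehicle libraries at 7 days with those at 48 hours was not used for the selection, and it asks whether the 7 genes also changed over time without drug. It shares its libraries with the contrasts that chose them. The 7 genes went both ways: by edgeR's quasi-likelihood test with FDR over all 20444 genes, 2 were higher at 7 days, 4 lower and 1 was not called, against 49.4% of all genes called, 23.9% higher and 25.5% lower. Unc45b rose most. Its mean was 254.5 ± 10.7 normalized counts at 48 hours and 917 ± 20.4 at 7 days (SD, n = 4 each), which is 1.85 on the log2 scale (SE 0.0752, edgeR FDR 1.17e-13). The gene a rose from 767 ± 12.9 to 1047 ± 45.5, by 0.45 on the log2 scale (edgeR FDR 2.77e-07).

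Ccdc187 had 240.4 ± 38.3 normalized counts at 48 hours and 72.5 ± 8.14 at 7 days in vehicle, a fall of −1.74 on the log2 scale (SE 0.157, edgeR FDR 1.4e-08). Mgp fell from 972 ± 14.4 to 463.5 ± 35.0 (log2 −1.07, edgeR FDR 3.9e-08). Smaller falls were measured for Angptl7, from 7195 ± 416 to 5109 ± 511 (log2 −0.50, edgeR FDR 7.52e-05), and for Enpp6, from 261.5 ± 16.4 to 194.9 ± 11.6 (log2 −0.42, edgeR FDR 0.00126). Tm4sf5 was 438 ± 22.5 and 437 ± 27.6, with a log2 difference of −0.01 and an interval of −0.17 to 0.15 (edgeR FDR 0.957). In the 6 genes called, the vehicle libraries of the 2 times did not overlap. The share of all genes without such overlap is not given here, so this is a description only. For Unc45b and a, then, the vehicle level rose while the sorafenib level at 7 days was below that at 48 hours.

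**Figure D4:**
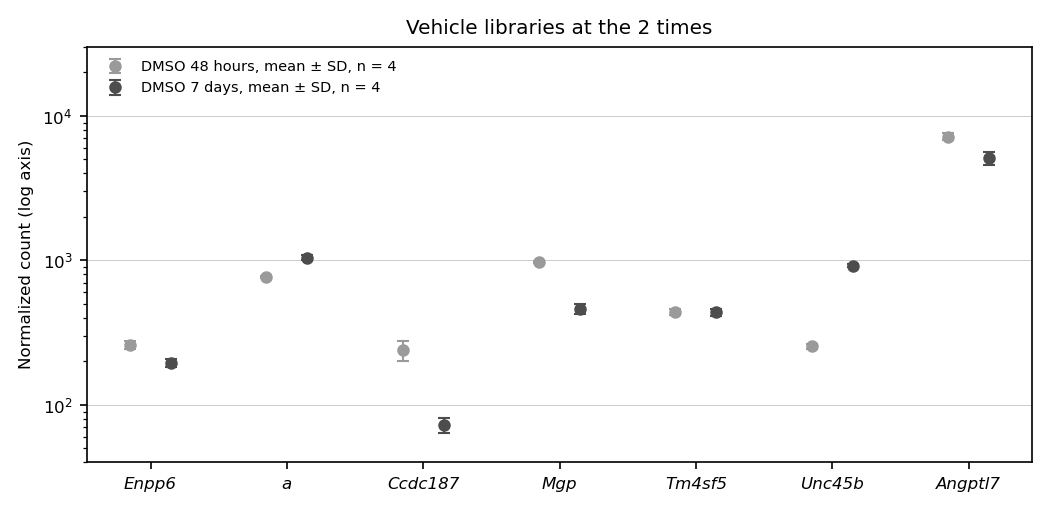
Mean normalized count ± SD (n = 4, log axis) of the 7 genes in the DMSO libraries at 48 hours and 7 days. Unc45b and a are higher at 7 days, Ccdc187, Mgp, Angptl7 and Enpp6 lower, and the Tm4sf5 means differ by less than their SD.

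Over all 16 libraries, each relative to its own gene's DMSO mean, the 7 profiles were compared by the root mean square (RMS) difference of log2 counts scaled to library size, for which a prior count sets the floor of values at 0. Among the 7, the closest pairs were a with Tm4sf5 and Mgp with Tm4sf5, at 0.64 each, and the farthest was Ccdc187 with Angptl7, at 2.03. Of 10743 other genes with at least 100 normalized counts in a vehicle group, Plac1, a gene of placenta, was among the 3 nearest to every one of the 7 but Ccdc187 and Angptl7. It kept 5.49% of its vehicle mean at 48 hours and 0.671% at 7 days, and its distance to Unc45b was 0.65. Fmo2, a flavin monooxygenase, was nearest to a and Enpp6 at 0.80 and 0.96, and Igfbp5, which binds insulin-like growth factors, was among the 3 nearest to a, Mgp, Tm4sf5 and Unc45b. Gria4 was also near Enpp6 and Unc45b, Olfr1033 near Tm4sf5, and Krt15, a keratin, was nearest to Mgp at 0.96.

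The nearest profiles of Ccdc187 were Ptprv at 0.57, Krt15 at 0.63 and Parvb at 0.69. The nearest to Angptl7 was H19, an imprinted noncoding RNA, at 1.01, and its mean normalized counts were 271600, 25290, 139200 and 1201 at DMSO 48 hours, sorafenib 48 hours, DMSO 7 days and sorafenib 7 days. Aldh1a2, which makes retinoic acid, followed at 1.26 with 15.6% and 0.831% of vehicle left at the 2 times, and Shisal1 at 1.42. The median distance of all genes compared ran from 3.72 for Ccdc187 to 4.98 for a. The distances follow largely the falls under sorafenib that chose the 7 genes. Genes with like falls are near by construction, so the contrast with the median carries no weight. The floor also lies deeper for genes with a higher vehicle level, which enters the distances.

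The relatives and partners of the 7 genes, from lists of known family members, went in both directions in 5 of the 6 lists at 48 hours. Their counts stand against 26.9% of all tested genes called higher and 27.7% lower at 48 hours, and 28.9% and 27.9% at 7 days. The vitamin K list at 48 hours and the melanocortin, UNC45, angiopoietin and TM4SF lists at 7 days lay below these shares in both directions. In the ENPP and GDPD phosphodiesterases, relatives of Enpp6, 8 of 11 tested genes fell and 1 rose at 48 hours, and 9 fell and 2 rose at 7 days. The median log2 fold change of that list was −0.36 at 48 hours and −0.80 at 7 days, against −0.05 and 0.02 over all tested genes. Enpp1, which makes pyrophosphate from nucleotides, had a log2 fold change of −1.46 at 48 hours (edgeR FDR 1.42e-07) and −2.50 at 7 days. Gdpd5, a glycerophosphocholine phosphodiesterase, was at −1.27 and −1.64 at the 2 times, Gdpd3 fell by 1.17 at 48 hours, and Enpp5 rose by 1.61 at 7 days.

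In the melanocortin system, to which agouti belongs, 4 of 10 tested genes rose and 1 fell at 48 hours, and 2 rose and 8 were not called at 7 days. The medians were 0.23 and 0.66, but Agrp, Pomc, Mc1r, Mc3r, Mc5r, Mrap2 and Corin had group means under 10 normalized counts, and both medians rest partly on such genes. Mc3r, a melanocortin receptor called higher at 48 hours, had no count at DMSO 48 hours and 3.17 ± 3.18 normalized counts (n = 4) at sorafenib 48 hours, where the libraries overlapped. Mrap2, called higher at 7 days, had no count at DMSO 7 days and 2.20 ± 2.26 (n = 4) under sorafenib. Atrn, the agouti co-receptor attractin, rose by 0.90 on the log2 scale at 48 hours and by 0.51 at 7 days. Its relative Atrnl1, on chromosome 19, rose by 0.39 at 48 hours and by 0.54 without sorafenib replicate 2. Mgrn1, a ubiquitin ligase of the same pigment pathway on chromosome 16, fell by 0.37, and by 0.25 without that library.

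In the vitamin K cycle and Gla proteins, the setting of Mgp, 2 of 12 genes rose and 3 fell at 48 hours, and 5 rose and 3 fell at 7 days, with medians of −0.20 and −0.01. Prrg3, a membrane Gla protein on the X chromosome, had the largest change of that list, with a log2 fold change of −3.03 at 48 hours (−2.94 without sorafenib replicate 2) and −4.49 at 7 days. Vkorc1, which recycles vitamin K, fell by 0.75 at 48 hours. Pros1, protein S, rose by 0.88 at 48 hours (1.00 without that library) and by 1.70 at 7 days. Gas6, a ligand of TAM receptors, fell by 1.17 at 7 days.

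Of the 4 other TM4SF family genes, Tm4sf1 was the sole one with more than a few counts. It rose by 0.80 on the log2 scale at 48 hours, from 3263 ± 136 to 5659 ± 91.0 normalized counts (n = 4 each), and by 0.11 at 7 days. Tm4sf4 was also called higher at 48 hours, at 4.33 against 0.933 mean normalized counts, but not without sorafenib replicate 2, and the other 2 were not called at either time. The medians over the 4 genes were 0.20 and 0.27.

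In the UNC45 partners and myosin II heavy chains, 5 of 12 rose and 4 fell at 48 hours and 3 rose and 3 fell at 7 days, with medians of −0.03 and 0.11. Smyd1, a muscle methyltransferase that binds the UNC45B complex, had log2 fold changes of −1.36 and −1.93. Myh7b fell by 1.89 at 48 hours. Myh9, a nonmuscle myosin heavy chain, rose by 1.54 (1.67 without sorafenib replicate 2) and 1.17, and Myh11, the smooth muscle heavy chain, rose by 1.49 at 7 days.

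In the angiopoietins and angiopoietin-like genes, 2 of 10 rose and 3 fell at 48 hours, and 2 rose and 2 fell at 7 days, with medians of −0.18 and −0.43. Angptl6 moved opposite to Angptl7. It rose from 78.2 ± 4.73 to 916 ± 43.0 normalized counts at 48 hours (log2 3.55, edgeR FDR 7.93e-19), and by 4.31 on the log2 scale at 7 days. Angptl2 rose by 0.67 and by 2.02 on the log2 scale, and Angptl4, a lipoprotein lipase inhibitor on chromosome 17, fell by 1.52 at 48 hours, and by 1.38 without sorafenib replicate 2.

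The genes that lie next to or over the 7 on the chromosome went in both directions under sorafenib. Of 18 protein-coding neighbours, 6 were higher, 7 lower and 5 not called at 48 hours, and 3 were higher, 10 lower and 5 not called at 7 days. Of all tested genes, 26.9% were called higher and 27.7% lower at 48 hours, and 28.9% and 27.9% at 7 days. Art4, among those called lower at 7 days, had mean normalized counts of 1.15 under DMSO and 0 under sorafenib there. Art4, Erp27, Vmo1, Fndc8 and Slfn5 had at most 17 counts in any library, and among the rest the log2 fold changes ran from −1.48 to 0.93. Ahcy, 8.29 kb beyond a, had the lowest of these values, at −1.25 and −1.48. Stox2, beyond Enpp6, was at −0.69 and −0.91.

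Some neighbours overlap a gene of the 7. The annotated span of a covers Raly on the same strand, with log2 fold changes of −0.34 and −0.33, and Eif2s2 on the other, with 0.85 and 0.28. Angptl7 lies within the span of Mtor on the opposite strand, where Mtor was at −0.18 and −0.31. Unc45b overlaps Nle1 on the opposite strand, at −0.30 and −0.68. The strand setting of the counting is not given in the sources used here, so reads of such pairs could have been split between them. Raly, Eif2s2, Mtor and Nle1 had mean normalized counts from 795 to 7229 under sorafenib at 7 days, where the means of a, Unc45b and Angptl7 were 2.30, 1.46 and 8.56.

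**Figure D5:**
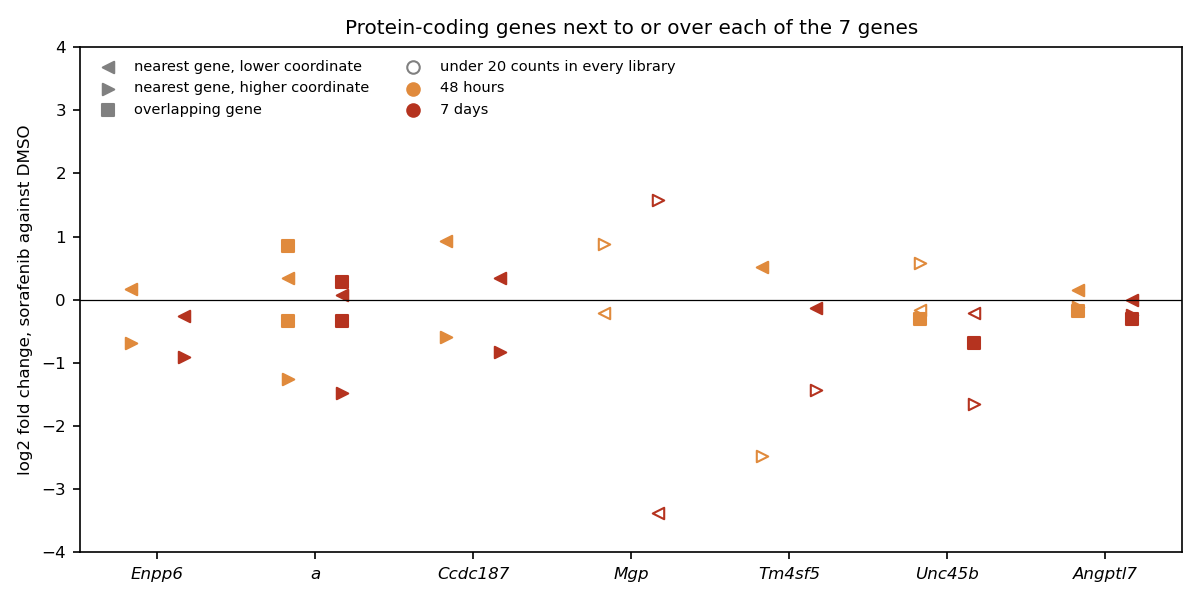
Log2 fold change under sorafenib at 48 hours and 7 days of the protein-coding genes before, after or overlapping each of the 7 genes; left and right triangles are the nearest genes at lower and higher coordinates, squares overlap the gene, and open symbols had under 20 counts in every library. The filled symbols lie between −1.48 and 0.93, and those of Mgp are all open.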

How the data were processed

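RNA was isolated from the cells and libraries were made with a stranded poly(A) kit, per the labels. The authors deposited 1 table of raw counts per gene for the 16 libraries. The submitters' processing notes name STAR 2.7.1a, featureCounts 2.0.6 of Subread and DESeq2 1.40.2, and the builds GRCm39 and mm39; the annotation and strand setting of the counting are not given in the sources used here, and a read shared by overlapping genes could be lost or split. Samples were grouped by treatment and time from the labels. Genes with under 10 counts in total were removed (20396 of 40840), and the rest were fitted in 1 model of 4 groups with edgeR 4.0.16 (TMM, glmQLFit, glmQLFTest) in R 4.3.3, with Benjamini-Hochberg adjustment and a threshold of 0.05. On simulated data for the 48-hour comparison, 199 of 200 changed genes among 20095 were recovered, with 5 false calls. The simulation gave all genes the same spread, changed no gene of low count and held no deviating library. Its rates therefore do not carry over to the real libraries. No sample was dropped and no count imputed.

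The share of the vehicle level left is the ratio of summed counts over summed effective library sizes, with an exact conditional interval; a group at 0 was set to 3 counts for a bound. The members and gene lists were chosen with earlier results of these data known. The genes named are the 7, up to 3 called genes per list and time with the largest change and a mean of at least 20 normalized counts, the nearest and overlapping genes, and the 3 nearest profiles; genes outside the 7 with the lowest shares, Tm4sf4, Mc3r, Mrap2, Foxa2, Sox9, H19's values and the genes of a list on chromosomes 15 to 19 or X without sorafenib 48 hours replicate 2 were added after their values were seen. Acta1, Tnnt3, Mylpf, Myog, Kdr, Pdgfra, Pdgfrb and Col1a2 were likewise added after their values were seen. Gene positions are from GENCODE for GRCm39 (32251 of 40840 names matched 1 gene). Promoters are from RefSeq. Alternatives were DESeq2 1.42.0, other size factors and filters, 8-library fits, a replicate block and leaving out each library. No library pair was identical, and no depth below 3 counts per library could be resolved.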

Additional observations from a re-analysis of the deposited data

Results flagged for a closer look

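Tm4sf5 at sorafenib 7 days was flagged because replicate 3 had a normalized count of 0.875, which is 1 count, while the other 3 libraries were at 0. The criterion sets the gap to the next value against the range, so any group with 3 libraries at 0 and 1 above meets it. Its nominal rate of about 1 group in 20 does not hold for such counts. The single count is at the limit of counting and is not read as an outlier.

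For 15 of the relatives and partners named, the response to sorafenib differed between the times by a test of the difference itself (edgeR interaction, FDR under 0.05), given here as the log2 response at 7 days minus that at 48 hours. It was more negative at 7 days for Enpp1 (−1.04), Gdpd5 (−0.36), Atrn (−0.39), Prrg3 (−1.46), Gas6 (−0.51), Tm4sf1 (−0.69), Myh9 (−0.37) and Smyd1 (−0.57). It was more positive for Gdpd3 (0.64), Enpp5 (1.17), Pros1 (0.82), Myh11 (0.84), Angptl6 (0.75), Angptl4 (1.13) and Angptl2 (1.35). Gdpd3 was the closest to the threshold, with an edgeR FDR of 0.0492. These genes were named for a large change at 48 hours or 7 days in the same libraries, which favours a difference between the times. The share of all tested genes with such a difference is not given here, so the count of 15 carries no weight. The 7 genes themselves were not tested for this difference, since both times chose them.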

How the results depend on the processing

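The vehicle calls of Enpp6, a, Ccdc187, Mgp, Unc45b and Angptl7 kept their direction and their side of the threshold under every alternative run, and the counts of genes called stayed within 1.5 times their value. The log2 difference of Tm4sf5, which was not called, changed sign and was 0.007 with DESeq2, 0.008 with DESeq2 size factors and 0.007 with no filter beyond 1 count, and −0.045 to 0.022 when 1 library was left out. The bound for Enpp6 at 7 days was 0.352% to 0.506% when 1 library was left out, because 3 counts were then set against fewer reads. Without sorafenib 48 hours replicate 2, an alternative added after the data were seen, TM4SF genes called higher at 48 hours went from 2 to 1. The replicate numbers did not pair the libraries: deviations of same-numbered libraries had a mean correlation of −0.02, and 0 of 16 libraries correlated best with their own number in every other group. With the replicate block, 10916 genes were called at 48 hours, 11348 at 7 days and 9871 in the vehicle comparison, against 11158, 11613 and 10100, and it changed no vehicle call of the 7 genes, while the melanocortin genes called higher at 48 hours went from 4 to 3. With DESeq2, the vitamin K genes called lower at 48 hours went from 3 to 4 and the UNC45 and myosin genes called higher at 7 days from 3 to 4. Depth limits the 7-day shares, where 22 of 28 values were at most 3 counts.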
